A study of Ovis aries with 19 samples.

Results

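The complement and coagulation factors are plasma proteins, most of them made by hepatocytes, and their genes were followed here in liver and skeletal muscle of female sheep. The genes were taken by name from lists of 22 complement and 20 coagulation genes, and kept where their mean normalized count was at least 10 in liver or in muscle. Of the 42 listed names 39 were matched, 19 of complement and 20 of coagulation, among 28524 genes in the table and 14909 that reached a mean of 10 in either tissue. C1QB, C3 and C5 were not matched by name and were not analysed here. All 39 reached the mean of 10 in liver, and 15 did so in muscle: 12 of complement (C1QA, C1QC, C1R, C1S, C2, C7, C8G, CFB, CFD, CFI, CFP and MASP1) and 3 of coagulation (F10, FGB and PROS1).

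The study set control sheep against sheep labelled as given a prenatal testosterone treatment. There were 4 control and 5 treated livers and 5 control and 5 treated muscles, from 10 animals, of which control sheep 132 had a muscle library only. The labels used here name no dose, gestational window or age at sampling, and libraries are called below by the sheep number in their labels. Each normalized count is a read count divided by a size factor of its library. Libraries held 10236610 to 16046301 reads in liver and 8455563 to 14331578 in muscle. The tissues matched their labels: ALB, the albumin gene of hepatocytes, averaged 480433 normalized counts in control liver and 3.45 in control muscle, while the summed skeletal muscle markers were 1809140 to 2106030 in control muscle and 45.3 to 139 in control liver. Across all genes, 1 of 13640 passed the threshold for treatment in liver (limma, adjusted p under 0.05, 0.00733%) and 1 of 12966 did so in muscle (0.00771%).

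Complement is a cascade of plasma proteases that marks surfaces for clearance. It is set off by C1q bound to antibody (the classical pathway), by mannose-binding lectin bound to sugars (the lectin pathway) or by a self-amplifying loop of factors B and D (the alternative pathway), and it ends in a membrane pore. Coagulation is a second cascade in which vitamin K dependent proteases lead to thrombin, thrombin turns fibrinogen into fibrin, and antithrombin, protein C, protein S and plasmin limit the clot. The liver is the main source of most of these proteins in plasma, while C1q and properdin are known as products of macrophages and other myeloid cells, and factor D as a product of fat cells.

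All of these genes were higher in liver than in muscle. In control sheep, 19 of 19 complement and 20 of 20 coagulation genes passed the threshold in that direction (limma on reads scaled jointly over the tissues, adjusted p under 0.05), against 36.3% of the 14947 genes tested. Every liver library also lay above every muscle library for all 39 genes, an order that 23.8% of all tested genes showed. Since the genes were listed as liver products, these counts describe the list. The filter also bears on them: 24 of the 39 genes were under the mean minimum in muscle and were kept by their liver mean. For those 24 the direction was largely set before the test, so their passing and the 36.3% decide nothing further about it. For the 15 genes that reached the minimum in both tissues the filter did not set the direction, and all of them were higher in liver. They too come from the list of liver products, so this also describes the list. The share among all genes that reached the minimum in both tissues was not counted.

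The size of the gap differed widely between genes of the same pathway. Among complement genes the ratio of the control liver mean to the control muscle mean was smallest for C7, a part of the membrane pore, at 3.66, followed by CFP (properdin, which stabilizes the alternative convertase) at 5.12, CFD (factor D, the protease that cleaves factor B) at 9.17, C1QC at 12.2 and C1QA at 17.5. MASP1, a protease of the lectin pathway, was 25.8-fold higher in liver, and the C1 proteases C1S and C1R were 63.5-fold and 84.2-fold higher. These 8 were the complement genes with a ratio under 100. Of the coagulation genes, 2 had one: PROS1 (protein S, a cofactor of activated protein C) at 54.5 and F10 (factor X, which forms thrombin) at 80.6. The ratio was 546 for C2 and 574 for CFB (factor B), the proteases of the classical and alternative C3 convertases, 1426 for CFI (factor I, which cleaves C3b and C4b), and 158 for C8G. The ratios themselves were not compared by a test.

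**Figure D1:**
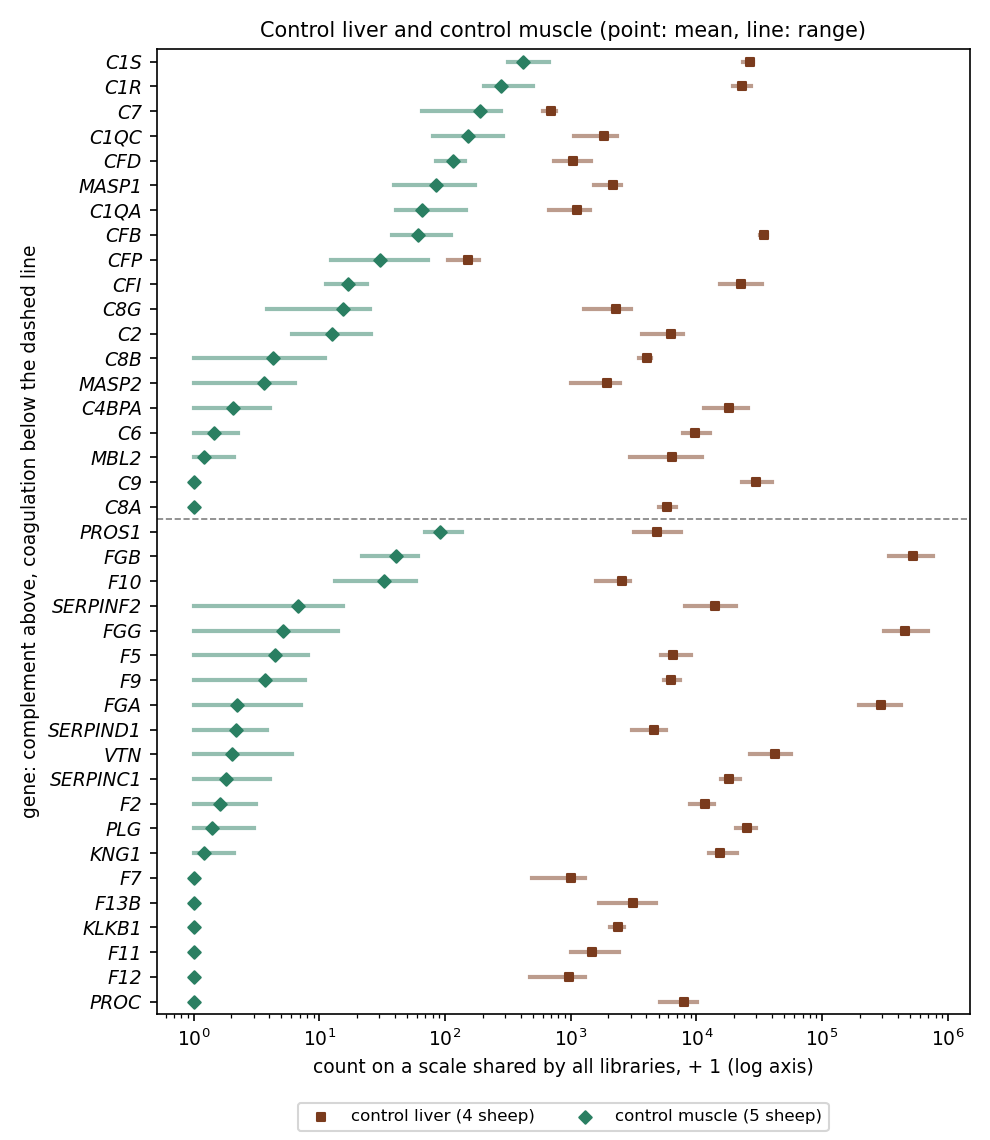
Counts of the 39 genes in control liver (4 sheep) and control muscle (5 sheep) on a scale shared by all libraries, plus 1, on a logarithmic axis, with a point at each mean and a line over the range. Liver and muscle lie closest for C7, CFP and CFD, and the 8 genes with no read in control muscle have their muscle point at 1.

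At the other end, 8 genes had no read in any control muscle library. With a floor of 3 reads over the 5 control muscle libraries, they were at least 9263-fold higher in liver for C8A and at least 46996-fold higher for C9, both parts of the membrane pore. For coagulation the bounds were at least 12577-fold for PROC (protein C), at least 4913-fold for F13B (the carrier chain of factor XIII), at least 3732-fold for KLKB1 (prekallikrein), at least 2317-fold for F11, at least 1584-fold for F7 and at least 1538-fold for F12. No muscle library of either group had a read of C8A, F11, F13B or KLKB1. A further 5 genes had 1 to 3 reads over the control muscles, and their ratios carry wide counting intervals: 21231 for C6 (95% interval 6383 to 190402, counting error only), 29418 for MBL2 (5379 to 1183730), 18588 for F2 (6355 to 90061), 71926 for KNG1 (13151 to 2894200) and 62062 for PLG (16495 to 492017).

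Genes that lie beside each other in the sheep gene table did not share 1 ratio of liver to muscle. C6 and C7 have 1 protein-coding gene between them, yet C7 was 3.66-fold higher in liver and C6 21231-fold. F7 and F10 are adjacent, and F10 was 80.6-fold higher in liver while F7 had no read in control muscle. FGG, FGA and FGB encode the 3 chains of fibrinogen and are adjacent, and their ratios were 109373, 243157 and 13287. The first 2 of these rest on few reads: the 6 reads of FGA in control muscle all came from sheep 131, and of the 20 reads of FGG 13 came from sheep 131 and the rest from sheep 179, so that without sheep 131 FGA had no read in control muscle. The reads of FGB per read of FGA were accordingly 1.85 over all livers and 17.5 over all muscles (508 reads against 29). The reads of FGB per read of FGG were 1.15 and 9.96, and without the muscle of sheep 131 the muscle ratios were 19.5 and 11.8. Treated 233 alone held 15 of the 29 FGA reads, 16 of the 51 FGG reads and 133 of the 508 FGB reads. The muscle ratios without treated 233 were not computed. C7 gave 0.0815 reads per read of C6 in liver and 123 in muscle. By contrast the neighbours C1R and C1S kept near the same proportion, with 1.21 reads of C1S per read of C1R in liver and 1.46 in muscle, and C1QC gave 1.59 and 2.40 reads per read of C1QA. CFB and C2, also adjacent, had the like ratios given above.

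Fibrinogen took a large share of the liver libraries. FGA, FGB and FGG together made up 10.3% ± 2.32 of all reads in control liver (SD, n = 4, from 7.64% to 12.3%) and 12.3% ± 1.76 in treated liver (SD, n = 5, from 10.2% to 13.9%), so that the groups overlapped. The other 17 coagulation genes took 1.42% ± 0.31 of reads in control and 1.26% ± 0.16 in treated liver, and the 19 complement genes 1.64% ± 0.19 and 1.72% ± 0.21. In muscle the complement genes took 0.0129% ± 0.0051 of reads in controls and 0.0170% ± 0.0047 in treated sheep (n = 5 each).

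Prenatal treatment changed no gene of either family in liver past the threshold. None of the 19 complement and none of the 20 coagulation genes reached an unadjusted p under 0.05 (limma on log2 of the normalized count plus 1), where 3.99% of all 13640 genes tested did (1.82% higher and 2.17% lower in treated sheep), and their adjusted p was 0.999. With edgeR and with DESeq2 the count at an unadjusted p under 0.05 was also 0. Over all genes it was 227 higher and 353 lower with edgeR, and 332 and 355 with DESeq2. The log2 differences, treated minus control, ran from -0.12 to 0.64 in complement, with a median of 0.16 and 15 of 19 above 0, and from -0.62 to 0.44 in coagulation, with a median of 0.025 and 11 of 20 above 0. The median of all genes was 0.0032, with 50.4% above 0. T and NK cell markers moved the same way as the complement median (8 of 8 tested above 0, median 0.44, sums of 270.2 to 402 in control and 349 to 695 in treated liver). Above 0 were 6 of 8 hepatocyte markers (median 0.0096), 4 of 9 macrophage markers (-0.0075) and 2 of 9 endothelial markers (-0.20). Of the stellate cell and fibroblast markers 6 of 10 were (0.048), of the B cell markers 2 of 3 (0.12) and of the neutrophil markers 2 of 4 (-0.17). The part of these lists in the complement values was not tested. With edgeR the coagulation median was -0.0070. With standard errors between 0.22 and 0.51 on the log2 scale, differences of the size seen here could not be told from the spread used in the test. In limma that spread is drawn partly from other genes of like mean. In bulk tissue, fewer cells of a type and less RNA per cell cannot be told apart.

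The C1 complex genes, the start of the classical pathway, overlapped between the groups. C1QA, a chain of C1q, had 1091, 627, 1338 and 1131 normalized counts in the livers of control sheep 98, 131, 179 and 201, and 1145, 1805, 1219.8, 1576 and 689 in treated sheep 48, 63, 185, 233 and 255. C1QC, another chain, had 2172, 983, 1710.0 and 1939 in controls and 1658, 2584, 2413, 2395 and 811 in treated sheep. Both were low in control 131 and treated 255 and high in treated 63. The log2 differences were 0.28 ± 0.32 (SE) for C1QA and 0.16 ± 0.37 for C1QC. The protease genes C1R and C1S averaged 21508 ± 3192 and 24542 ± 2219 in control liver (SD, n = 4) and 22282 ± 2904 and 28596 ± 6243 in treated liver (n = 5).

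In the livers the C1q chains moved together: their deviations from the group means correlated with r = 0.91 over 9 livers (permutation test, p = 0.0066, adjusted over 8 gene pairs 0.018) and rho = 0.70 (p = 0.043, adjusted 0.115). Without the 2 livers farthest from the median of C1QA r was 0.44, so r over all 9 depended much on those 2 samples. Leaving out the extremes of a gene also narrows its range, which by itself lowers r. In muscle the same pair had r = 0.92 over 10 libraries (permutation test, p = 0.0003, adjusted 0.0012) and rho = 0.92 (p = 0.00054, adjusted 0.0022), and r was 0.82 without the 2 farthest. The summed macrophage markers, 9 genes, were 1789 to 3802 in control and 2043 to 3840 in treated livers; their part in the C1q values was not tested.

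Of the convertase genes, CFB stood out by order but not by test. It had 31852, 29925, 32792 and 32746 normalized counts in control livers and 33561, 33801, 38335, 42337 and 39424 in treated livers. All 5 treated values lay above all 4 controls, and CFB was the only gene among the 39 whose groups did not overlap in liver, an order that 1.54% of all tested genes showed. The log2 difference was 0.23 ± 0.24, with an adjusted p of 0.999 (limma). CFB itself had a residual SD of 0.12 on the log2 scale, against a median of 0.52 for all genes tested. Its standard error thus came partly from the larger spread of other genes. CFD had 1051, 678, 832 and 1302 in controls and 923, 1966, 1430.0, 2054 and 441 in treated livers, which hold both the lowest and the highest value, and a log2 difference of 0.34 ± 0.42. The summed adipocyte markers were 928 to 2202 in control and 242 to 1134 in treated liver, with 0 of 6 tested above 0, a median log2 difference of -1.07 and 4 of 6 lower at an unadjusted p under 0.05, and 2 or 3 of the 9 listed genes at 0 in each liver (ADIPOQ averaged 0 in control and 0.44 in treated liver); their part in the CFD values was not tested. C2 averaged 5814 ± 1631 in control and 5531 ± 1146 in treated liver, and CFP 140.3 ± 31.0 and 175 ± 83.9.

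The lectin pathway held the gene with the widest range in liver of the 39. MBL2, mannose-binding lectin, had 5655, 4921, 10387 and 2662 normalized counts in control livers and 11286, 6111, 3070.2, 9234 and 19069 in treated livers. Its highest value, in treated 255, was 7.16 times its lowest, in control 201, and the log2 difference of 0.64 ± 0.51 had an adjusted p of 0.999 (limma). Of the proteases that MBL2 carries, MASP1 had 2073, 2334, 1426 and 2231 in controls and 2248, 2155, 2412, 2368 and 1519 in treated livers, low in 1 liver of each group, control 179 and treated 255. MASP2 averaged 1780.4 ± 579 in control and 1605 ± 458 in treated liver.

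Among the inhibitors, C4BPA (C4b-binding protein, which takes apart the classical convertase) had the smallest unadjusted p of the 39 in liver. Controls had 10644, 17743, 23956 and 15541 normalized counts, and treated livers 24705, 24074, 16374, 27684 and 30784. In 4 of 5 treated livers it lay above every control, and treated 185 lay among the controls. The log2 difference was 0.57 ± 0.30, with an adjusted p of 0.999 (limma). CFI averaged 21179.9 ± 7813 in control and 24713 ± 11495 in treated liver, a log2 difference of 0.16 ± 0.39.

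The genes of the membrane pore showed no shared direction. C7 had 712, 651, 658 and 539 in controls and 640.3, 659.6, 588, 1356 and 879 in treated livers. Only treated 233 and 255 lay above the controls, with a log2 difference of 0.30 ± 0.27 (SE). C9, the unit that forms the ring of the pore, had 29276, 23317, 37412 and 20796 in controls and 25729.8, 29388, 19058, 34817 and 27948 in treated livers, and its log2 difference was -0.0064 ± 0.29. C6, C8A and C8B averaged 9036 ± 2009, 5442 ± 829.1 and 3769.9 ± 423 in control and 8752 ± 2946, 5944 ± 936 and 4425 ± 1236 in treated liver. C8G had 1971, 2822, 1201 and 2466 in controls and 2085, 2815, 1770.0, 2857 and 1316 in treated livers, with low and high values in both groups. The log2 differences of these 4 were between -0.084 and 0.19. The 3 chains of C8, which bind to each other in plasma, did not move together: r was 0.31 for C8A with C8B, 0.068 for C8A with C8G and -0.074 for C8B with C8G over 9 livers, with rho of 0.32, -0.13 and 0.23 (permutation tests, smallest p = 0.409, adjusted p at least 0.545). Without the 2 livers farthest from the median r was 0.61, 0.33 and -0.15.

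**Figure D2:**
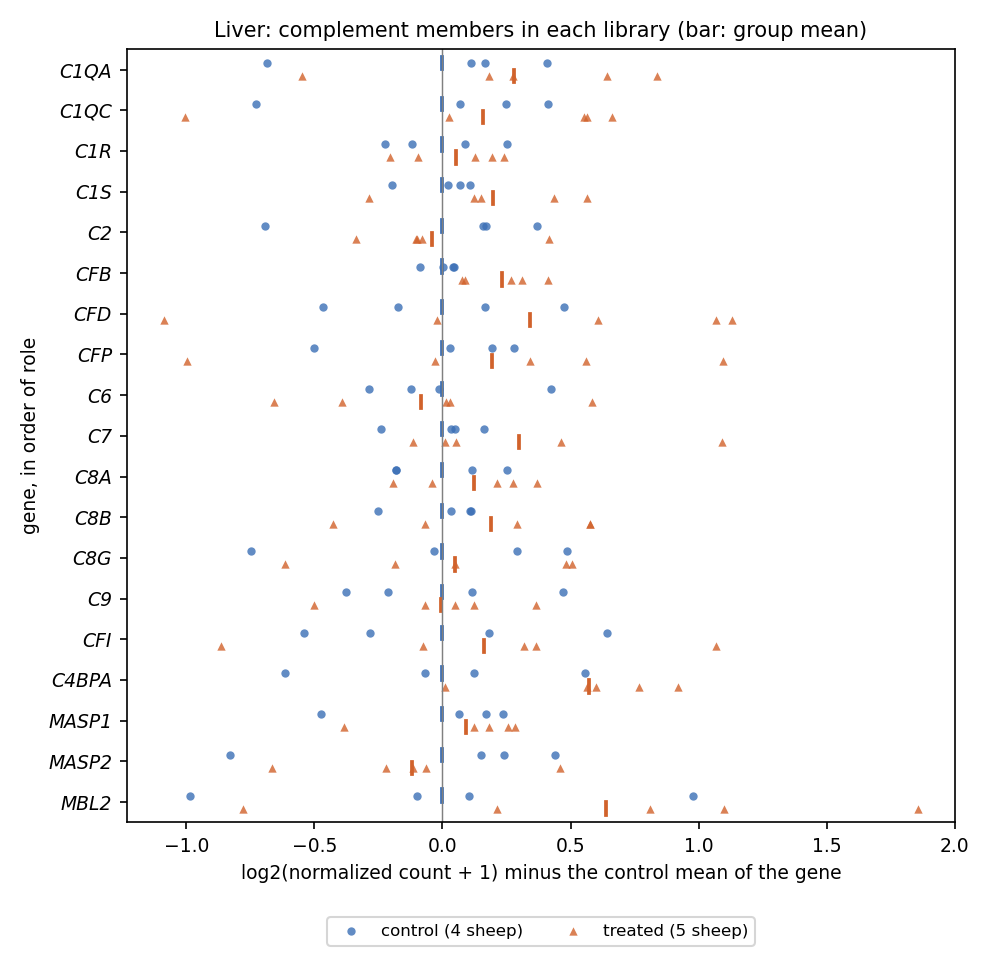
Complement genes in liver, as log2(normalized count + 1) minus the mean of the 4 controls, with a point for each of the 4 control and 5 treated livers and a bar at each group mean. The treated points of CFB all lie above its controls, MBL2 has the widest spread, and every other gene overlaps between the groups.

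In the coagulation cascade, F7 and F12, which start the extrinsic and the contact pathway, had lower means in treated liver without passing any threshold. F7 (factor VII) had 1123, 1218, 457 and 924 normalized counts in control livers and 475, 775, 546, 1145 and 408 in treated livers. Control 179 was as low as the treated livers and treated 233 was as high as the controls, and the log2 difference was -0.48 ± 0.36 (SE). F12 (factor XII) had 1089, 907, 441 and 1169 in controls and 399.8, 819, 698, 693 and 596 in treated livers. All 5 treated values lay below the control mean, control 179 lay below 4 of them, and the log2 difference was -0.44 ± 0.32. F2 (prothrombin) was among the steadiest, with 11367, 11262, 8398 and 12578 in controls, 9307, 10919, 11269, 13114 and 11504 in treated livers, and a log2 difference of 0.049 ± 0.23.

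The remaining procoagulant genes differed by less. F9 (factor IX) averaged 5797 ± 789 in control and 6325 ± 1050 in treated liver, and F5 (factor V, the cofactor of factor X) 6089 ± 1676 and 6071 ± 1559. F10 had 2713, 2777, 1490.2 and 2462 in controls and 1304, 2317, 1669, 3464 and 1753 in treated livers, and treated 233 was the highest of all. In the contact system F11 (factor XI) averaged 1367 ± 615 and 1345 ± 584, KLKB1 2196 ± 268 and 2396 ± 1061, and KNG1 (kininogen) 14386 ± 3642 and 17094 ± 6230. F13B averaged 2902 ± 1245 and 2682 ± 1225. None of the differences of these 7 exceeded its standard error on the log2 scale.

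The fibrinogen genes each had a higher mean in treated liver, and their groups overlapped. FGA (the alpha chain) had 262332, 181930 and 264806 normalized counts in controls 98, 131 and 179 and 385666 in control 201, and 312389, 329504, 473930, 278604 and 221878 in treated sheep. FGB (the beta chain) had 350495, 315004, 713210 and 568319 in controls and 715955, 662203, 585930, 510879 and 632306 in treated sheep. FGG (the gamma chain) had 289827, 290465, 658522 and 444072 in controls and 621127, 552389, 499015, 488169 and 541769 in treated sheep. For FGB and FGG all 5 treated livers lay above the control mean, while control 179 lay above 4 of them for FGB and all 5 for FGG, and controls 98 and 131 lay below all of them. The log2 differences were 0.25 ± 0.38, 0.42 ± 0.41 and 0.44 ± 0.40, none with an unadjusted p under 0.05 (limma).

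FGB and FGG kept nearly the same proportion in every liver, and FGA did not. The ratio of FGB to FGG ran from 1.05 to 1.28 over the 9 livers, a 1.22-fold range, whereas the ratio of FGB to FGA ran from 1.24 in treated 185 to 2.85 in treated 255, a 2.31-fold range. The deviations of FGB and FGG from their group means correlated with r = 0.97 (permutation test, p = 0.0001, adjusted over 8 pairs 0.0008) and rho = 0.97 (p = 0.00022, adjusted 0.0018), and r was 0.95 without the 2 livers farthest from the median. For FGA with FGB r was 0.40 (p = 0.298, adjusted 0.595) and rho 0.57 (p = 0.122, adjusted 0.243), and for FGA with FGG r was 0.26 (p = 0.504, adjusted 0.672) and rho 0.47 (p = 0.212, adjusted 0.339), all by permutation. The difference between these correlations was not tested.

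**Figure D3:**
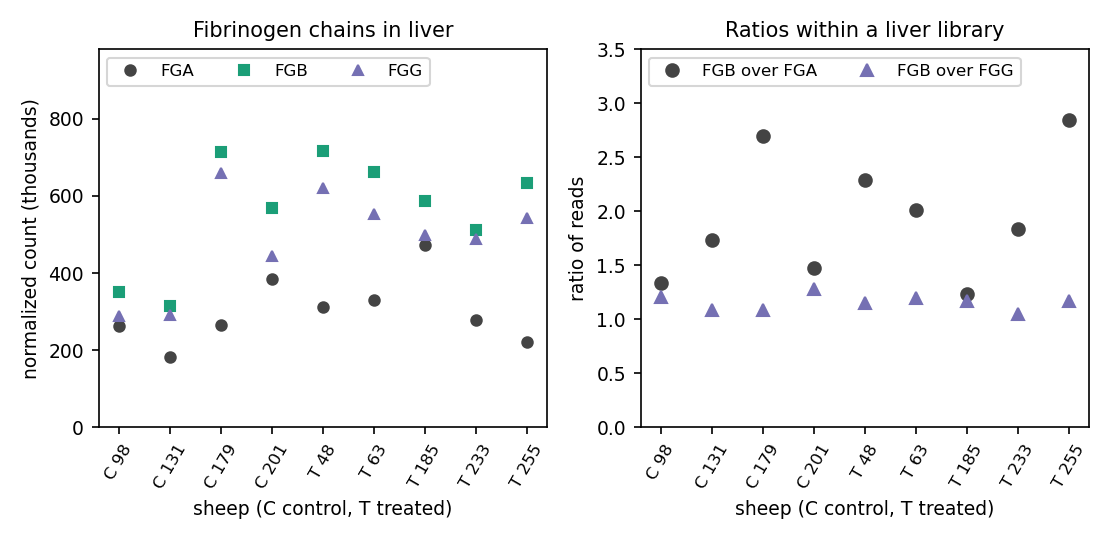
The left panel plots the normalized counts of FGA, FGB and FGG, with the axis scaled by 1000, in each of the 9 livers, and the right panel the ratios of FGB to FGA and of FGB to FGG in the same livers. FGB and FGG run in parallel with a ratio between 1.05 and 1.28, while the ratio of FGB to FGA runs from 1.24 to 2.85.

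Of the inhibitors, SERPIND1 (heparin cofactor II, an inhibitor of thrombin) had the most negative log2 difference in liver. Controls had 4917, 4151, 2875 and 5177 normalized counts, and treated livers 2001.2, 3224, 1508, 4545 and 3293. In 4 of 5 treated livers it lay below the control mean, with overlap at control 179 and treated 233, and the log2 difference was -0.62 ± 0.33 (adjusted p = 0.999, limma). SERPINC1 (antithrombin) had 14539, 16301, 20712 and 15338 in controls, 17331, 15689.5, 12202, 26023 and 24125 in treated livers, and a log2 difference of 0.15 ± 0.29. PROC averaged 7381 ± 1951 in control and 7427 ± 1234 in treated liver, and PROS1 4536 ± 1841 and 5241 ± 1824, with log2 differences of 0.036 ± 0.26 and 0.21 ± 0.35.

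The genes of clot removal overlapped too. PLG (plasminogen, the zymogen of plasmin) had 27658, 22616, 19404 and 23692 in controls, 18488, 18703, 21740, 28626 and 30188 in treated livers, and a log2 difference of -0.0072 ± 0.27. SERPINF2 (antiplasmin) averaged 12915 ± 4708 in control and 14848 ± 2860 in treated liver. VTN (vitronectin, an adhesion protein that also binds the terminal complement complex) averaged 39322 ± 14745 and 30361 ± 7704, with a log2 difference of -0.33 ± 0.33.

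**Figure D4:**
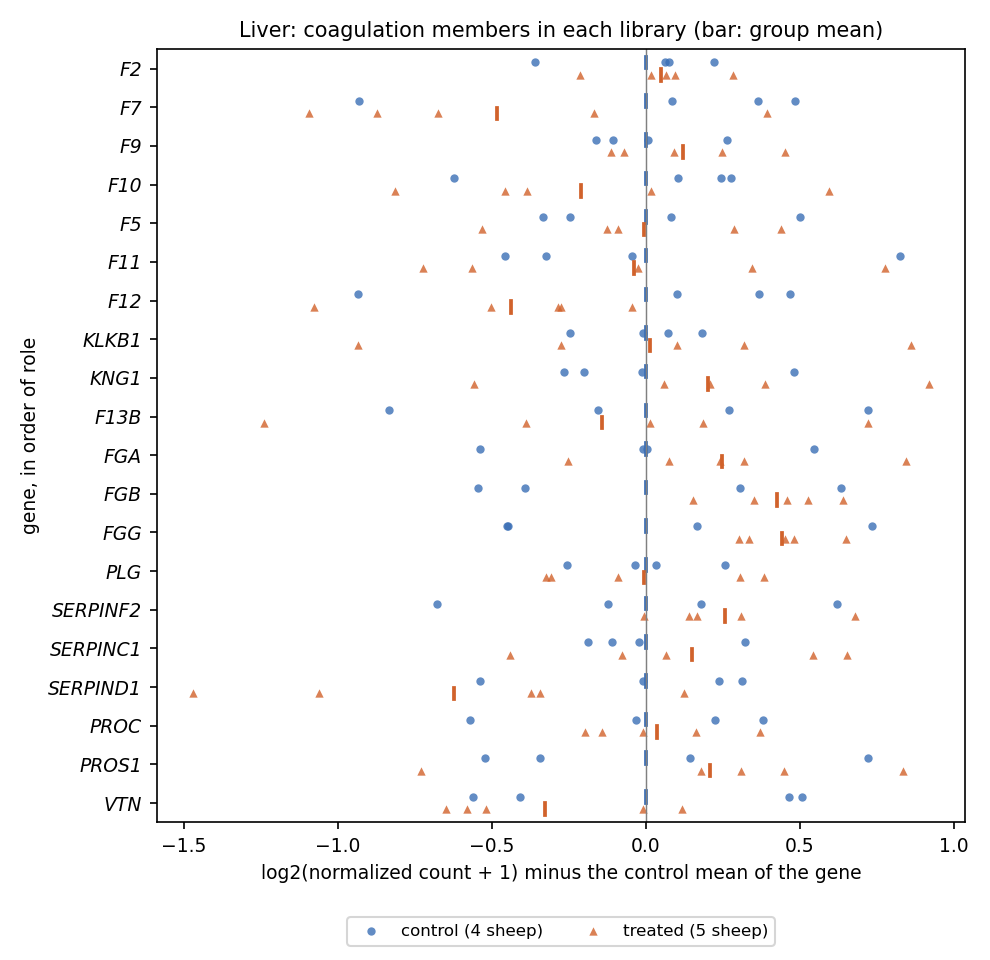
Coagulation genes in liver on the same scale, as log2(normalized count + 1) minus the control mean, with a point per liver and a bar at each group mean. All 20 genes overlap between the 4 controls and the 5 treated livers, and SERPIND1, F7 and F12 have the lowest treated means.

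The residual SD on the log2 scale had a median of 0.41 for complement and 0.44 for coagulation in liver, against 0.52 for all genes tested and 0.45 for all genes with a mean of at least 500. In muscle it was 0.64 for the 12 complement and 0.76 for the 3 coagulation genes, against 0.31 for all genes tested and 0.33 for the 8993 genes within the same range of muscle means. Control 132 stood apart for 4 of the 15 genes, and without it the medians were 0.52 and 0.65, against 0.33 for the genes of that range. Over the livers, treated 255 was highest in 11 of the 39 genes and lowest in 4, against 17.1% and 16.95% of all genes tested, and treated 233 was highest in 9 and lowest in 1, against 9.14% and 10.0%. Treated 185 was lowest in 10 and highest in 5, against 13.5% and 16.9% of all genes, control 179 lowest in 8 and highest in 4, against 16.2% and 19.2%, and treated 48 lowest in 6 and highest in 1, against 6.75% and 5.64%. Treated 233 lay above the control mean in 18 of 19 complement genes, control 98 in 16, treated 63 in 14 and each other liver in 9 to 11. The share over all genes was not counted. The 8 summed hepatocyte markers were also highest in treated 255 (1433240 normalized counts) and lowest in treated 185 (229626), with 438982 to 981930 in controls; their part in these extremes was not tested.

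In muscle no gene of either family passed the threshold for treatment. F10 alone of the 15 genes tested reached an unadjusted p under 0.05 (limma), where 14.4% of the 12966 genes tested did (7.37% higher and 7% lower in treated sheep). In none of the 15 were the groups apart without overlap, an order that 3.29% of all tested genes showed. The controls 98, 131, 132, 179 and 201 had 36.7, 61.7, 13.2, 25.5 and 31.4 normalized counts of F10, and treated 48, 63, 185, 233 and 255 had 29.4, 15.4, 16.7, 8.52 and 7.77. All 5 treated values lay below the control mean, and control 132 lay among the treated sheep. The log2 difference was -1.06 ± 0.43, with an adjusted p of 0.289 (limma). Without control 98, without control 131, without treated 233 or without treated 255 the unadjusted p was no longer under 0.05.

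The complement genes in muscle had log2 differences from -0.20 to 0.81, with a median of 0.26 and 11 of 12 above 0, against a median of -0.013 over all genes, of which 48.4% lay above 0. Other markers moved in the same muscles: 7 of 7 tested T and NK cell markers lay above 0 (median 0.47, sums of 165 to 239 in control and 201 to 347 in treated muscle), 0 of 8 skeletal muscle markers did (median -0.42, sums of 1809140 to 2106030 and 921569 to 1847750), and 1 of 7 adipocyte markers did (median -1.01). Above 0 were 2 of 8 macrophage markers (median -0.10), 3 of 8 endothelial markers (-0.13) and 4 of 9 stellate cell and fibroblast markers (-0.0078). Of the B cell markers 2 of 2 were (0.43), of the platelet markers 1 of 1 and of the hepatocyte markers 0 of 1. The part of these lists in the complement values was not tested. CFD had 129, 153, 110.0, 90.6 and 126 normalized counts in controls and 172, 169, 214, 237 and 81.6 in treated muscles. In 4 of 5 treated muscles it lay above every control, and treated 255 lay below every control. The log2 difference was 0.46 ± 0.25 (adjusted p = 0.439, limma), and without treated 255 it was 0.71 ± 0.18 (adjusted p = 0.0998, limma), the smallest adjusted p for any of these genes under any alternative. The summed adipocyte markers, 9 genes, were 2537 to 4415 in control and 2062 to 3414 in treated muscle, and their part in the CFD values was not tested.

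CFB had 38.7, 49.8, 119.9, 41.8 and 69.7 normalized counts in control muscles and 55.8, 67.2, 97.4, 101 and 89.3 in treated muscles, with the highest value in control 132. Its log2 difference was 0.45 ± 0.29 (adjusted p = 0.507, limma), and 0.71 ± 0.24 without control 132 (adjusted p = 0.273, unadjusted p under 0.05). C8G had 2.98, 26.0, 15.4, 13.9 and 19.1 in controls and 9.13, 37.2, 54.5, 29.0 and 12.6 in treated muscles, a log2 difference of 0.81 ± 0.56. MASP1 had 57.6, 184, 86.9, 81.3 and 41.0 in controls and 85.2, 94.7, 89.4, 145 and 123 in treated muscles. Its highest value was in control 131, and its log2 difference of 0.41 ± 0.32 was 0.71 ± 0.25 without that muscle (adjusted p = 0.287, limma, unadjusted p under 0.05).

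The C1 complex genes of muscle overlapped between the groups and were high in control 132. C1QA had 41.7, 55.2, 156, 43.0 and 49.2 normalized counts in controls and 63.9, 51.8, 69.8, 117 and 42.7 in treated muscles. C1QC had 137, 161, 310.3, 84.7 and 108 in controls and 167, 108, 176, 315 and 76.7 in treated muscles. Both were highest in control 132 and treated 233, and the log2 differences were 0.12 ± 0.36 and 0.058 ± 0.38. The macrophage marker sum was likewise highest in those muscles, at 584 in control 132 and 769 in treated 233, and it was 284 to 584 over controls and 239 to 769 over treated sheep; its part in the C1q values was not tested. C1R and C1S averaged 295 ± 134 and 445.5 ± 158 in control and 333 ± 73.1 and 478 ± 160.2 in treated muscle (SD, n = 5 each). Without control 132 the log2 difference of C1R was 0.48 ± 0.16 (adjusted p = 0.276, limma, unadjusted p under 0.05).

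The others tested in muscle overlapped between the groups. C7 had a mean of 201 ± 93.4 in controls and 243 ± 98.4 in treated muscles, CFI 17.1 ± 5.27 and 20.2 ± 4.07, C2 12.3 ± 8.51 and 13.6 ± 5.05, and CFP 31.7 ± 27.0 and 26.0 ± 16.9. FGB had 21.8, 63.9, 40.7, 37.2 and 47.9 in controls and 31.5, 89.0, 27.6, 113 and 10.7 in treated muscles, so that the treated group held both ends of the range, and its log2 difference was -0.0089 ± 0.52. PROS1 had 87.3, 72.5, 145, 87.1 and 86.1 in controls and 79.1, 64.7, 105, 156 and 87.4 in treated muscles, high in control 132 and treated 233. The 24 genes with a muscle mean under 10 had group means from 0 to 6.22 in control and up to 5.24 in treated muscle and were not tested there.

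**Figure D5:**
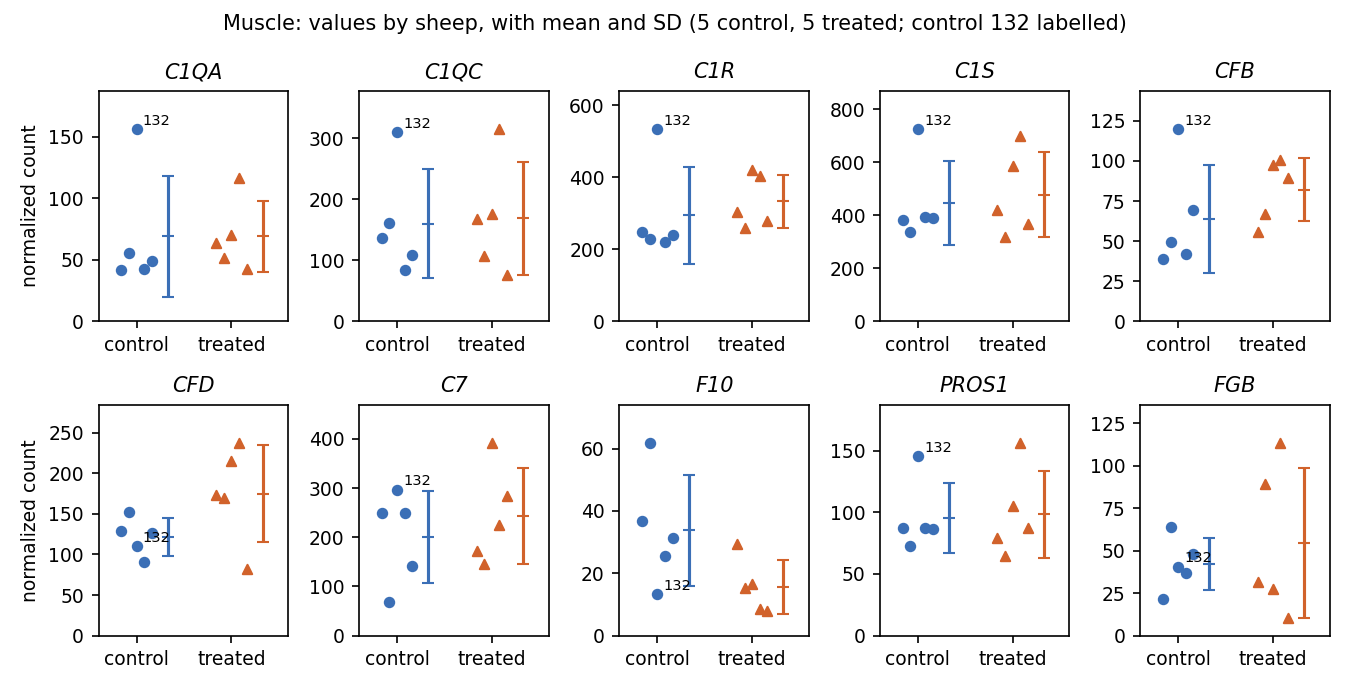
Normalized counts in each control and treated muscle for genes of both families named in the text, with the mean and SD beside each group (n = 5 each) and a separate axis from 0 for each gene. Control sheep 132 is labelled, F10 lies lower in the treated sheep with overlap, and CFD lies above all controls in 4 of 5 treated muscles.

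The treatment difference was also compared between the tissues for the 15 genes tested in both. None had an unadjusted p under 0.05 for the difference of muscle minus liver (limma, all libraries), where 4.9% of 11697 genes did, and none passed the threshold, which 0.00855% did. F10 had the smallest p, with a muscle minus liver log2 difference of -0.85 ± 0.53 (adjusted p = 0.973, limma). With sheep as a replicate block, which drops control 132 for want of a liver, it was -1.13 ± 0.48 (adjusted p = 0.929, limma, unadjusted p under 0.05). Leaving out control 132 with no block gave the same difference, -1.13 ± 0.50, also at an unadjusted p under 0.05. FGB had -0.43 ± 0.64, C8G 0.76 ± 0.68 and MASP1 0.32 ± 0.41.

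Other genes of the same systems were read beside these. Of 20 complement regulators and receptors tested in liver, 3 were higher and 1 lower in treated sheep at an unadjusted p under 0.05, where 1.82% and 2.17% of all genes were, and none passed the threshold (limma). CFHR5, a protein related to factor H, averaged 3123 ± 839 normalized counts in control and 5560.1 ± 1477 in treated liver, a log2 difference of 0.83. CD55 and CD59, membrane proteins that shield cells from complement, had log2 differences of 0.82 and 0.68, and CPN1, the catalytic chain of the carboxypeptidase that inactivates anaphylatoxins, had -0.48. In muscle 1 of 12 was higher, where 7.37% of all genes were: FCN3, a ficolin of the lectin pathway, with 8.95 ± 6.94 in control and 22.8 ± 10.97 in treated muscle.

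Of 27 other coagulation and fibrinolysis genes tested in liver, 2 were higher at an unadjusted p under 0.05, against 1.82% of all genes, and none lower. SERPINA10, an inhibitor of factor X together with protein Z, averaged 3430.3 ± 418 in control and 6530.4 ± 2155 in treated liver, groups that did not overlap, and ANXA2, a receptor that promotes plasmin formation, averaged 1508 ± 253 and 2789 ± 1218. In muscle 2 of 19 were higher and 2 lower, counts near the 7.37% and 7% of all genes: VKORC1 and GGCX, enzymes of the vitamin K cycle, averaged 74.0 ± 12.5 and 298 ± 34.9 in control and 98.6 ± 14.7 and 362 ± 34.9 in treated muscle, while VKORC1L1, a relative of VKORC1, averaged 432 ± 73.2 and 325 ± 41.5, and MCFD2, which helps to export factors V and VIII, 982 ± 44.4 and 842 ± 78.8. None of these passed the threshold over all genes.

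The acute phase proteins, which the liver raises in inflammation along with fibrinogen, had 0 of 16 genes at an unadjusted p under 0.05 in liver, with a median log2 difference of 0.16 and 13 of 16 above 0. In muscle, where 14.4% of all genes were at an unadjusted p under 0.05, 2 of 4 tested were, ITIH4 (an inter-alpha-trypsin inhibitor chain) higher and TF (transferrin, the iron carrier) lower. Of the regulators of the acute phase and of hepatocytes, 1 of 19 in liver was higher, IL1R1 (an interleukin 1 receptor), where 1.82% of all genes were, and 2 of 12 in muscle were lower, where 7% of all genes were: STAT3, a transcription factor of interleukin 6 signalling, averaged 1156 ± 181 in control and 813 ± 144 in treated muscle, and IL6R, the interleukin 6 receptor, 1372 ± 278 and 948 ± 89.7. None passed the threshold (limma).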

How the data were processed

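The submitters' processing notes name Trimmomatic (trimming), STAR (alignment) and featureCounts 1.6.1 (read counting). The build, the gene annotation and whether strand was used are not given in the sources used here. Signal values as deposited, called normalized counts here, were counts divided by a size factor per library, scaled apart for liver and muscle. Multiplying by that factor gave whole reads for 100% of the values above 0 (within 0.01 of a read), so depth per library was known and the count tests could be run. The labels give each library's group and sheep.

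Genes with a mean of at least 10 were tested on log2(value + 1) with limma 3.58.1 (R 4.3.3), treated minus control within each tissue, with Benjamini-Hochberg adjustment over all genes and a threshold of 0.05. A fold change on this scale understates the change of low genes. Liver and muscle were compared on recovered reads scaled jointly by median of ratios. edgeR 4.0.16 and DESeq2 1.42.0 were alternatives on the recovered reads, as were pseudocounts of 0.25 and 4, a mean of at least 50, no filter, TMM scaling, array weights, 1 fit of all 19 libraries and leaving out each library. The fits were tested on simulated data. Same-sheep libraries of the tissues come from the same animal, and their deviations from the group means correlated over 11697 genes with a median of 0.18 (0.10 to 0.35 over 9 sheep). Between different sheep the median was -0.019, with an overlapping range of -0.30 to 0.25. Of the 9 livers, 7 correlated best with the muscle of their own sheep. In limma, p-values and standard errors rest on the gene's spread between these sheep, drawn toward that of other genes of like mean. Per the labels, each library is a different animal within its group.

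Group means or library values are given for each gene in liver and, where it was tested, in muscle. Values in each library were given for the 4 genes of each family with the smallest p in a tissue, the 2 with the smallest p between tissues, and C1QA, C1QC, C9, CFD, MBL2, F2, FGA, FGB, FGG, PLG and SERPINC1. Up to 3 genes of each pathway list were named by smallest p in a tissue; any further gene of a list was chosen after its values were seen. Members and lists were chosen with earlier results of these data known. Gene order came from the NCBI gene table of ARS-UI_Ramb_v3.0, which held 37 of the 39 names; F11 and KLKB1 were not matched there. Annotated genes overlap C8B, CFD, CFI, CFP, MASP1, MASP2, F12, SERPIND1, PROC and VTN, so reads of these could be shared.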

Additional observations from a re-analysis of the deposited data

Results flagged for a closer look

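In 108 combinations of gene and group of 4 or 5 samples, 6 (5.56%) had a library that stood apart from the rest by Dixon's 95% limit, and chance flags about 1 in 20 groups. In treated liver, C2 was high in sheep 233, at 7480.2 normalized counts against 4434 to 5297 in the other 4, and MASP1 was low in sheep 255, at 1519 against 2155 to 2412. The other 4 flags were in 1 library, the muscle of control sheep 132. There C1QA was at 156 normalized counts against 41.7 to 55.2 in the other 4 controls, C1R at 535 against 221 to 249, C1S at 725 against 336 to 395, and PROS1 at 145 against 72.5 to 87.3. That muscle also had the highest macrophage marker sum of the controls, and the part of this in the 4 values was not tested.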

How the results depend on the processing

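No complement or coagulation gene passed the threshold for treatment under any alternative run. The smallest adjusted p was 0.384 in liver (C4BPA, array weights), 0.0998 in muscle (CFD, without treated 255) and 0.534 for the difference between tissues (C8G, without sheep 179). For liver against muscle, 19 complement and 20 coagulation genes were higher in liver under all alternatives. The genes called in liver (1) became 0 with a mean of at least 50, 32 with DESeq2, 2 with array weights and 9 in 1 fit of all libraries. Those called in muscle (1) became 0 with a pseudocount of 0.25 or a mean of at least 50 and 259 with DESeq2, and leaving out a library gave 0 to 4. Those called between tissues (1) became 0 with the replicate block or a pseudocount of 4, and 0 to 1 leaving out a sheep. For liver against muscle in control sheep, 5429 genes were called higher and 4959 lower in liver, and 5387 and 4892 with the block.

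Family genes at an unadjusted p under 0.05 in liver (0) became 5 with array weights (C4BPA, MBL2, SERPIND1, F12 and F7) and 0 to 4 leaving out a library, with 4 without control 179 (F12 -0.75, F7 -0.79, C4BPA 0.76 and SERPIND1 -0.80), 2 without treated 185 (C4BPA and MBL2), 1 without treated 233 (SERPIND1) and 1 without treated 255 (CFD). The counts over all genes rose as well. In the main fit 248 were higher and 296 lower of 13640, and with array weights 694 and 826. Without control 179 they were 543 and 613 of 13641, and without treated 185 337 and 492 of 13619. Without treated 233 they were 211 and 235 of 13651, and without treated 255 257 and 304 of 13633. In muscle (1) they became 2 with edgeR, DESeq2 or array weights (F10 and CFD), and 0 to 3 leaving out a library, with 3 without control 132 (F10, C1R and CFB). With a mean of at least 50 the count was 0. F10, with a muscle mean of 24.6, was left out by that filter before testing, so this 0 says nothing about F10. Over all 12966 genes there, 955 were higher and 907 lower in the main fit. With edgeR they were 1053 and 784, with DESeq2 1062 and 867, and with array weights 978 and 1003. With a mean of at least 50 they were 694 and 839 of 9919, and without control 132 859 and 840 of 12985. Leaving out each muscle in turn gave 781 to 1064 higher and 650 to 1164 lower. Between tissues (0) it was 1 with the replicate block, which also drops control 132, and 0 to 1 leaving out a sheep (1 without control 132 and 1 without treated 48), F10 each time. Over all genes, 348 lay above and 260 below 0 with the block, of 11697 tested. Without control 132 they were 270 and 233 of 11705, and without treated 48 247 and 188 of 11697.

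Directions were followed for the genes given library by library in a tissue and, between tissues, for F10, FGB, C8G and MASP1. Of their log2 differences under the alternatives 535 kept their direction and 46 reversed. The other genes were not counted here, among them F5 (-0.0053) and KLKB1 (0.014) in liver, with differences near 0. In liver C8G was -0.00089 with edgeR and -0.024 with array weights, PLG 0.0063 with DESeq2, and with array weights C9 was 0.16, F2 -0.056 and MASP1 -5.24e-05. In muscle FGB was 0.021 with a pseudocount of 4, 0.0097 with TMM, 0.38 with edgeR, 0.38 with DESeq2 and 0.12 with array weights, and between tissues it was 0.070 with edgeR. Leaving out a library, liver values ran from -0.084 to 0.45 for C1QC, -0.20 to 0.21 for C8G, -0.13 to 0.15 for C9, -0.071 to 0.12 for F2, -0.066 to 0.21 for MASP1 and -0.10 to 0.078 for PLG. Muscle values ran from -0.092 to 0.46 for C1QA, -0.21 to 0.33 for C1QC, -0.38 to 0.44 for FGB and -0.16 to 0.18 for PROS1, and FGB between tissues from -0.87 to 0.025. The cause was not tested. Without the filter, muscle had 3 family genes at an unadjusted p under 0.05: F10, C6 (0.49 control and 2.82 treated normalized counts, log2 difference 1.40, adjusted p = 0.222, limma) and SERPINC1 (0.85 and 2.50, log2 difference 1.07, adjusted p = 0.394), the last 2 on a few reads per library. Over all 20636 genes tested without the filter, 1357 were higher and 1043 lower at that p. Genes with few muscle reads are limited by depth.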
